A study of Oryctolagus cuniculus with 15 samples.

Results

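ALDH1A1 and TKT are the corneal crystallins of the rabbit keratocyte, and they were followed here across every library of the study. They were taken by gene symbol from the count and FPKM tables, which gives 2 genes of the 23428 listed. The RNA came from first-passage rabbit corneal keratocytes that had spent 6 days in serum-free medium. All 5 conditions share that medium and were sequenced as bulk RNA, with 3 libraries each (15 in all) from separate experiments in which dishes or matrices were pooled. In 2DC, cells lay on a dish coated with collagen and were treated with digestion medium before lysis. In 2DC_L the same coated dish was lysed directly, with no digestion. In 2DF, cells lay on top of a fibrillar collagen matrix. In 3DF they were embedded in such a matrix at 100000 cells per matrix, and in 3DF_50 at 50000 cells per matrix. The matrix cultures (2DF, 3DF and 3DF_50) were also digested to free the cells. The study describes the effective cell density as lower in 3D than on flat cultures, so position and density differ together between them. Strain, sex and age of the animals are not used here.

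A crystallin is a water-soluble protein that a transparent tissue holds in large amounts. In the lens most crystallins are structural proteins, whereas in the cornea they are ordinary enzymes kept at high levels. ALDH1A1, also called retinal dehydrogenase 1, oxidizes retinaldehyde to retinoic acid and removes the aldehydes that form when membrane lipids are oxidized. TKT, transketolase, moves 2-carbon units between sugars in the non-oxidative branch of the pentose phosphate pathway, the pathway whose oxidative branch makes NADPH. Both proteins are known to be abundant in quiescent keratocytes and to be lost when these cells become repair fibroblasts, and both are also found in the corneal epithelium.

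ALDH1A1 lies on the minus strand of chromosome 1 of oryCun2 (59419429 to 59477893), and TKT on the minus strand of chromosome 9 (20184712 to 20207377). The exonic lengths used for FPKM are 1907 and 2070 bases. Between 14626982 and 31804255 reads were counted per library. Of these, ALDH1A1 had 18303 to 33815 and TKT 17898 to 43036, so that counting error is at most 0.739% for ALDH1A1 and 0.747% for TKT and the errors below are those between libraries. FPKM counts fragments per kilobase of exon relative to a size per library, here 0.921 to 1.24 times its summed counts, and it allows the levels of 2 genes to be compared. By FPKM, ALDH1A1 ranked between 43 and 98 and TKT between 42 and 88 among all genes of a library. ALDH1A1 ran from 457 to 902 FPKM over the 15 libraries, a 1.97-fold range, and TKT from 522 to 919, a 1.76-fold range.

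The cell label was checked against marker genes. Of 9 listed keratocyte markers 7 were in the tables, and all 7 had a mean of at least 1 FPKM in each condition, and their summed level was 20108 to 42158 FPKM per library, led by the corneal proteoglycans. The sum was lowest in 3DF_50, at 20108 to 23265 FPKM, with 22454 to 26730.5 in 2DF and 23870 to 29749 in 2DC_L. It was 24232 to 30357 FPKM in 2DC and 27717 to 42158 in 3DF, where replicate 1 held the maximum. The leukocyte gene PTPRC stayed at a mean of at most 0.07 FPKM in any condition. Of the 15 corneal epithelium markers 12 were in the tables, and their summed level was highest in 3DF, at 10.6 to 15.6 FPKM. It was 0.480 to 8.24 FPKM in 3DF_50 and 1.21 to 7.80 in 2DF, against 0.454 to 1.91 on the digested and 0.878 to 2.19 on the directly lysed coated dishes. The epithelial keratin KRT12 had 0 counts in all 2DC and 2DC_L libraries and 114 to 183 counts in 3DF. The 7 corneal endothelium markers summed to 419 to 547 FPKM in 2DC libraries, 511 to 599.7 in 2DC_L and 490.5 to 609 in 2DF, but only to 242 to 308 in 3DF and 193 to 214 in 3DF_50. The 6 immune markers present summed to 2.65 to 8.35 FPKM in any library. The 4 myofibroblast markers in the tables summed to 0.492 to 0.921 FPKM in 3DF_50 and 0.747 to 1.10 in 3DF, against 1.68 to 5.28 in 2DF, 3.40 to 10.7 in 2DC_L and 5.18 to 7.64 in 2DC.

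ALDH1A1 was highest in 3DF_50 and lowest in 2DC. In 2DC its level was 495, 608 and 574 FPKM in replicates 1 to 3. In 2DC_L it was 457, 571 and 810.5 FPKM, so that replicate 3 of the directly lysed dishes stood well above the other two and above every other library from a flat culture. In 2DF it was 613, 643 and 551 FPKM, inside the range of the coated dishes. In 3DF it was 668, 697 and 699 FPKM, above every 2DC and every 2DF library. In 3DF_50 it was 874, 843 and 902 FPKM, above all 12 libraries of the other conditions. Mean levels, from the top, were 873 ± 29.2 FPKM for 3DF_50, 688 ± 17.7 for 3DF, 613 ± 180.3 for 2DC_L, 602 ± 46.6 for 2DF and 559 ± 57.7 for 2DC (SD, n = 3 each). The spread between libraries was thus smallest in the 3D conditions, with a coefficient of variation of 2.57% in 3DF and 3.35% in 3DF_50 against 29.4% in 2DC_L. These coefficients were not tested against each other.

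**Figure D1:**
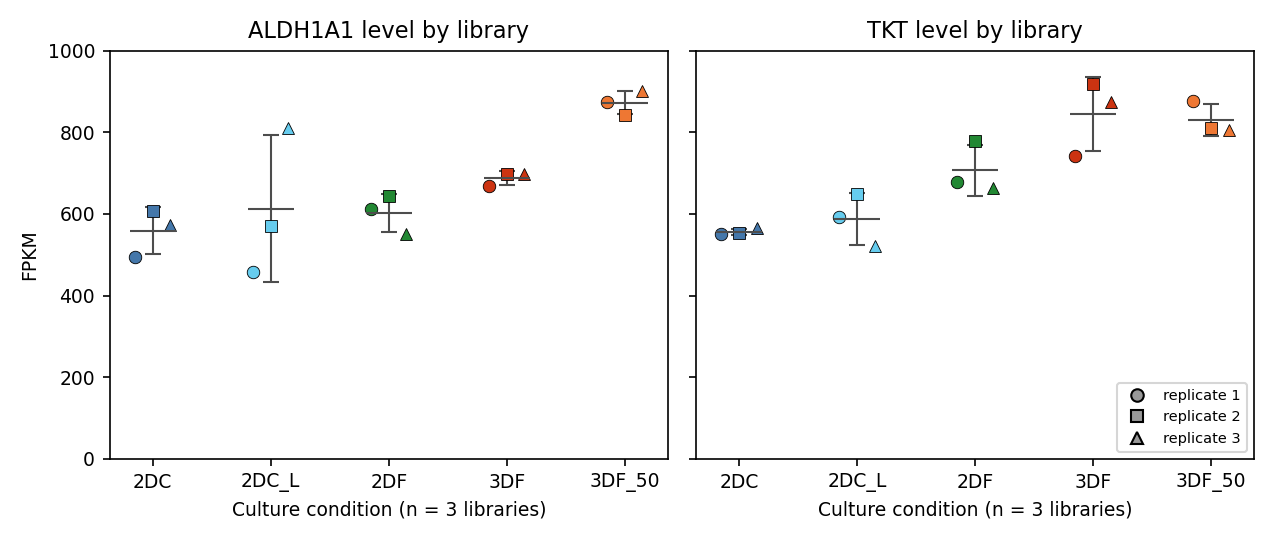
FPKM of ALDH1A1 (left) and TKT (right) in each library, by culture condition, with marker shapes for replicates 1 to 3, a horizontal line at the mean and bars for the SD (n = 3). ALDH1A1 is at 843 or more in all 3DF_50 libraries and in no other library, whereas TKT is at 743 or more in both 3D conditions and in 2DF replicate 2.

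TKT was high in both 3D conditions. In 2DC its level was 551, 553 and 565 FPKM, the tightest group of the set with a coefficient of variation of 1.34%. In 2DC_L it was 593, 649 and 522 FPKM. Replicate 3 of 2DC_L, the library with the highest ALDH1A1 of the coated dishes, had the lowest TKT of all 15 libraries. In 2DF it was 678, 779 and 665 FPKM, above all 6 libraries of the coated dishes. In 3DF it was 743, 919 and 875 FPKM, and in 3DF_50 it was 876, 811 and 805 FPKM. The 3D groups overlapped each other, and 3DF replicate 1 fell below 2DF replicate 2. Mean levels were 845 ± 91.4 FPKM for 3DF, 831 ± 39.5 for 3DF_50, 707 ± 62.3 for 2DF, 588 ± 63.4 for 2DC_L and 556 ± 7.46 for 2DC (SD, n = 3 each).

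One test per gene over all 5 conditions asked whether the levels differed at all. It was an edgeR quasi-likelihood F test on the counts of the 15 libraries, with Benjamini–Hochberg adjustment over the 14036 genes tested, of which 41.8% were called at an adjusted p of at most 0.05. The adjusted p from edgeR was 0.00112 for TKT and 0.0195 for ALDH1A1. ALDH1A1 lost the call when 3DF_50 replicate 1 or 3 was left out (edgeR adjusted p = 0.063 and 0.0738) and when only 2DC, 2DF and 3DF were compared (edgeR adjusted p = 0.197). TKT kept it in each of these fits.

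The 10 pairs of conditions were then tested one by one with edgeR, each fit holding only the 6 libraries of the pair. A gene was called at an adjusted p of at most 0.05, and the differences are log2 fold changes of the first condition over the second on the TMM-normalized count scale. None of the 20 differences reached the study's limit of 1 on the log2 scale. Pairs that share a condition share its libraries and are not independent of each other.

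**Figure D2:**
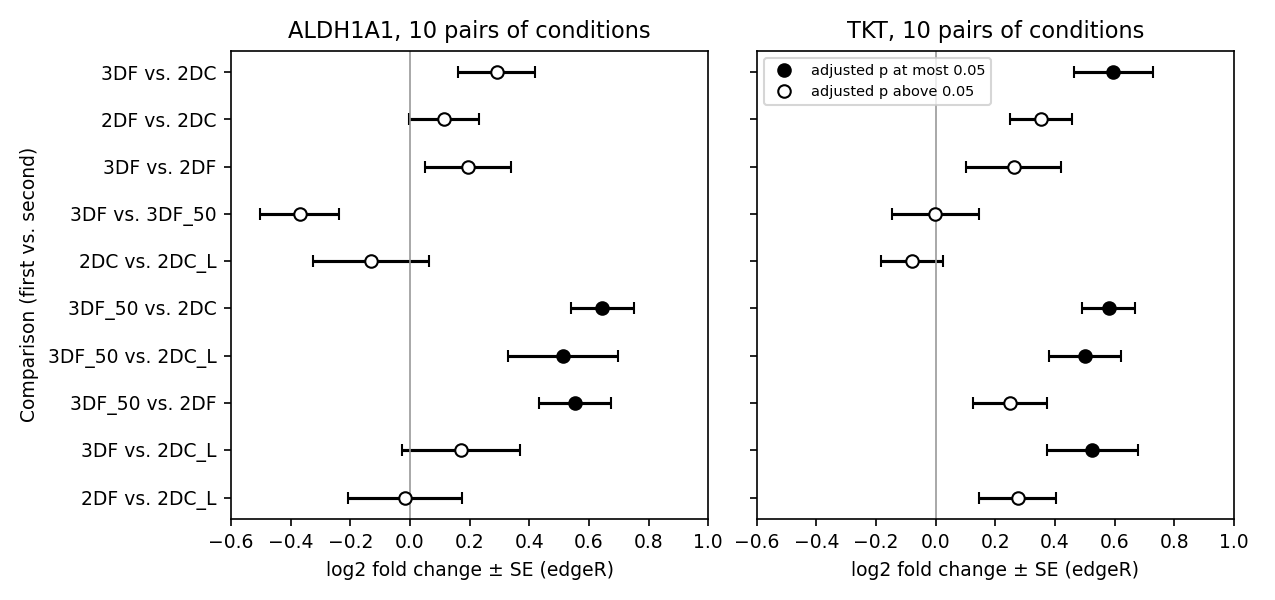
Log2 fold change (first condition over second) with its standard error from edgeR for ALDH1A1 (left) and TKT (right) in the 10 pairs of conditions, n = 3 libraries per condition. Filled points have an adjusted p of at most 0.05, which held for 3 pairs in ALDH1A1, all with 3DF_50, and for 4 pairs in TKT, all of a 3D condition over a coated dish.

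The pair 3DF vs. 2DC compares embedded cells with cells on the coated dish, both after digestion. TKT rose by 0.60 (SE 0.13, edgeR adjusted p = 0.018), a 1.51-fold difference, and ALDH1A1 differed by 0.29 (SE 0.13, edgeR adjusted p = 0.172), a 1.22-fold difference. Of all genes tested 15.4% were called in this pair. For both genes all 3DF libraries lay above all 2DC libraries. How many of all genes separate in this way was not counted, here or in the pairs below, so separation is description only. The TKT call was lost when either 2DC replicate 1 or 2 or 3DF replicate 2 or 3 was left out, with edgeR adjusted p up to 0.102 and a difference of at least 0.53. Within the library-name prefix that the groups share (E6, 1 library each), log2 FPKM was higher in 3DF by 0.22 for ALDH1A1 and by 0.40 for TKT. With all 15 libraries and that prefix as a block, ALDH1A1 differed by 0.07 (edgeR adjusted p = 0.819), while scaling by library size alone put it at 0.47 and called it (edgeR adjusted p = 0.0417). Of the 8 epithelial markers tested 7 were higher in 3DF and none lower in this pair. Only 4 passed the filter on low counts in 2DC vs. 2DC_L. Markers such as KRT12, with 0 counts in 2DC, passed here only through 3DF, which fixed their direction beforehand. Further, 2 of 7 endothelial and 2 of 3 myofibroblast markers were lower. Only 1 myofibroblast marker passed in 3DF vs. 3DF_50, so the calls of that list against 3D carry the same limit. The part of these markers in the difference was not tested. In bulk RNA, fewer cells of a type and less RNA per cell cannot be told apart.

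The pair 2DF vs. 2DC changes the surface under flat cells, and 14.4% of all genes were called in it. The study names stiffness as a possible confounder of this pair. Matrices were also lifted and their cells pelleted before lysis, whereas coated dishes were lysed in place. Surface, stiffness and handling cannot be told apart here, and they also differ wherever a matrix culture is set against a coated dish. TKT differed by 0.35 (SE 0.10) and missed the threshold narrowly (edgeR adjusted p = 0.0545). DESeq2 called it with nearly the same size (0.35, adjusted p = 0.00268), and over all alternatives of this result the adjusted p ran from 0.00268 to 0.767. In TKT the 3 libraries of 2DF all lay above those of 2DC, which is description only. ALDH1A1 differed by 0.11 (SE 0.12, edgeR adjusted p = 0.55), with overlapping groups. The pair shares no library-name prefix, so that prefix and condition cannot be told apart there.

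The pair 3DF vs. 2DF keeps the fibrillar matrix and changes the position of the cells together with their density, and 6.05% of all genes were called in it. Position and density cannot be told apart in this pair. Neither crystallin was called. ALDH1A1 differed by 0.20 (SE 0.14, edgeR adjusted p = 0.461) and TKT by 0.26 (SE 0.16, edgeR adjusted p = 0.372). By description only, the ALDH1A1 libraries of the 2 groups did not overlap, and those of TKT did. These groups share no prefix either.

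The pair 3DF vs. 3DF_50 changes the number of embedded cells, and 0.617% of all genes were called in it. ALDH1A1 was lower at the higher cell number in every library, at -0.37 (SE 0.13), but with an edgeR adjusted p of 0.175 it was not called. DESeq2 gave the same size and called it (adjusted p = 0.0407), and the adjusted p ran from 0.0407 to 0.425 over the alternatives. TKT differed by -0.000863 (SE 0.15, edgeR adjusted p = 0.998). Within prefix E7 the 3DF_50 library exceeded the 3DF library by 0.37 in log2 FPKM of ALDH1A1 and lay below it in TKT, at -0.19.

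The pair 2DC vs. 2DC_L tests the digestion step, and 0.367% of all genes were called in it. ALDH1A1 differed by -0.13 (SE 0.19, edgeR adjusted p = 0.96) and TKT by -0.08 (SE 0.10, edgeR adjusted p = 0.95). For ALDH1A1 the direction rested on 2DC_L replicate 3, without which the difference was 0.12. Within prefix E2 and within prefix E3 the 2DC_L library was lower than its 2DC partner in ALDH1A1 (-0.12 and -0.09 in log2 FPKM) and higher in TKT (0.11 and 0.23).

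The remaining pairs set 3DF_50 against each flat culture, and 3DF and 2DF against 2DC_L. In 3DF_50 vs. 2DC, where 38.0% of all genes were called, ALDH1A1 rose by 0.64 (SE 0.11, edgeR adjusted p = 0.00167), a 1.56-fold difference. TKT rose by 0.58 in the same pair (SE 0.09, edgeR adjusted p = 0.00125), a 1.49-fold difference. Both calls held when any 1 of the 6 libraries was left out. ALDH1A1 took 0.101% ± 0.0121 of the counted reads in 2DC and 0.202% ± 0.00312 in 3DF_50 (SD, n = 3), and scaling by library size alone put its difference at 1.00 and that of TKT at 0.93. The median of all genes in this pair then stood at 0.37, against 0.01 with TMM. With all 15 libraries and the library-name prefix as a block, ALDH1A1 was 0.45 and no longer called (edgeR adjusted p = 0.0909, the highest over its alternatives, the lowest being 1.07e-09). Within prefix E3 the 3DF_50 library exceeded the 2DC library by 0.52 in log2 FPKM for ALDH1A1 and by 0.66 for TKT. Of the markers tested in this pair none of 3 epithelial ones was called, 2 of 7 endothelial and 2 of 3 myofibroblast markers were lower, and of 7 keratocyte markers 2 were higher and 2 lower. Their part in the differences was not tested.

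In 3DF_50 vs. 2DC_L, with 42.9% of all genes called, ALDH1A1 rose by 0.51 (SE 0.18, edgeR adjusted p = 0.0466) and TKT by 0.50 (SE 0.12, edgeR adjusted p = 0.00826). The ALDH1A1 call held in 1 of the 6 fits that leave out a library, the one without 2DC_L replicate 3, where the difference was 0.76. The other fits gave 0.34 to 0.54 with edgeR adjusted p up to 0.158. The prefix block (0.43, edgeR adjusted p = 0.0686) and limma with pseudocounts of 1 and 0.1 (0.55 with each, limma adjusted p = 0.0716 and 0.0671) also lost it. In this pair 2 of 6 endothelial and 2 of 3 myofibroblast markers were lower and 1 of 3 immune markers higher, none of 3 epithelial markers was called, and of 7 keratocyte markers 2 were higher and 2 lower. Their part was not tested. In log2 FPKM the 3DF_50 library exceeded its 2DC_L partner by 0.61 within prefix E3 and 0.15 within E7 for ALDH1A1, and by 0.43 and 0.62 for TKT. In 3DF_50 vs. 2DF, with 13.4% called, ALDH1A1 rose by 0.55 (SE 0.12, edgeR adjusted p = 0.0114) and TKT differed by 0.25 (SE 0.12, edgeR adjusted p = 0.239). With the prefix block ALDH1A1 was at 0.44, in a fit where 2DF replicates 2 and 3 have prefixes of their own (E9 and E10). Only 2DF replicate 1 then sets the difference, so that fit cannot judge the call. The ALDH1A1 call was lost with limma at either pseudocount (0.54, limma adjusted p = 0.0601 and 0.0543) and without 3DF_50 replicate 3 (0.53, edgeR adjusted p = 0.0539). Here 2 of 6 endothelial and 1 of 2 myofibroblast markers were lower, none of 4 epithelial markers was called, and of 7 keratocyte markers 1 was higher and 3 lower, and their part was not tested. Within prefix E5 the 3DF_50 library exceeded the 2DF library by 0.46 for ALDH1A1 and 0.26 for TKT in log2 FPKM.

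In 3DF vs. 2DC_L, with 23.3% called, TKT rose by 0.53 (SE 0.15, edgeR adjusted p = 0.0346) and ALDH1A1 differed by 0.17 (SE 0.20, edgeR adjusted p = 0.565). The TKT call held only in the fit without 3DF replicate 1 among the 6 that leave out a library, and the other 5 gave 0.44 to 0.60 with edgeR adjusted p up to 0.117. The replicate block (0.53, edgeR adjusted p = 0.0582) and limma with pseudocounts of 1 and 0.1 (0.52 with each, limma adjusted p = 0.0596 and 0.0539) lost it too. In this pair 7 of 8 epithelial markers were higher, again with markers that passed the filter on low counts only through 3DF. Further, 2 of 7 endothelial and 2 of 3 myofibroblast markers were lower. The part of these markers in the TKT difference was not tested. Within prefix E7, 3DF exceeded 2DC_L by 0.81 in log2 FPKM of TKT and lay below it in ALDH1A1, at -0.22. In 2DF vs. 2DC_L, with 22.6% called, TKT differed by 0.27 (SE 0.13, edgeR adjusted p = 0.163). ALDH1A1 differed by -0.02 (SE 0.19, edgeR adjusted p = 0.966), and without 2DC_L replicate 3 by 0.24. Put in order of mean FPKM, ALDH1A1 ran from 2DC through 2DF, 2DC_L and 3DF to 3DF_50, and TKT from 2DC through 2DC_L, 2DF and 3DF_50 to 3DF. No 2 neighbours in either order were called different in edgeR. By mean share of counted reads some neighbours changed places. TKT then stood higher in 3DF_50 (0.209%) than in 3DF (0.187%), and ALDH1A1 higher in 2DF (0.118%) than in 2DC_L (0.110%).

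The ratio of ALDH1A1 to TKT within a library does not depend on how libraries are scaled. In replicates 1 to 3 it was 0.899, 1.10 and 1.02 on the digested coated dishes (2DC) and 0.772, 0.880 and 1.55 on the directly lysed ones (2DC_L). It was 0.905, 0.826 and 0.829 on top of the matrix (2DF), 0.899, 0.759 and 0.799 inside it (3DF), and 0.998, 1.04 and 1.12 at the lower cell number (3DF_50). TKT was therefore the more abundant transcript in all 6 libraries of 2DF and 3DF, and in 10 of the 15 overall. Conditions held 32.5% of the sum of squares of the log2 ratio. An exact permutation test over all 1401400 divisions of the libraries into 5 groups of 3 gave p = 0.357 (one-sided by construction). Without 2DC_L replicate 3 the share was 73.8% (exact permutation p = 0.0138), and over 2DC, 2DF and 3DF alone it was 63.1% (exact permutation p = 0.0464 over 280 divisions). Whether conditions were told apart by the ratio thus turned on that library and on the conditions compared.

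Among the 10 pairs the log2 ratios did not overlap in 2DC against 3DF, 2DF against 3DF_50, and 3DF against 3DF_50. In 2DC against 3DF the closest ratios were 0.8994 (2DC replicate 1) and 0.8987 (3DF replicate 1). That gap lies within counting error, so the separation of 2DC from 3DF, and with it its p below, hangs on it. The pair 3DF against 3DF_50 had mean log2 ratios of -0.29 and 0.07. Each of the 3 pairs had an exact permutation p of 0.1, two-sided, which is the smallest that 3 against 3 libraries allow and becomes 0.333 after Benjamini–Hochberg adjustment over the 10 pairs.

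**Figure D3:**
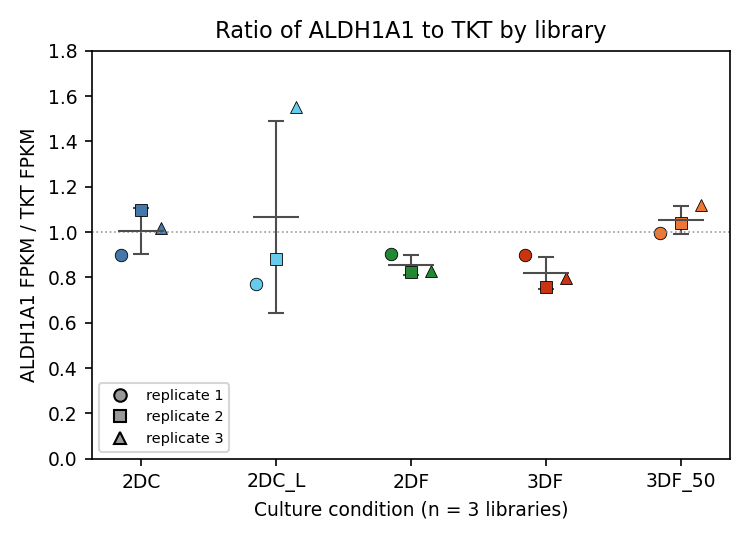
ALDH1A1 FPKM divided by TKT FPKM in each library, by culture condition, with marker shapes for replicates 1 to 3, a horizontal line at the mean and bars for the SD (n = 3); the dotted line marks equal levels. All libraries of 2DF and 3DF lie below 1, and 2DC_L replicate 3 stands apart at 1.55.

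ALDH1A1 dominated its family. Among the 18 genes of the tables whose symbol or description names an aldehyde or retinal dehydrogenase, it made up 62.2% ± 2.59 of the summed FPKM in 2DC and 64.7% ± 1.75 in 3DF_50 (SD, n = 3). Next came ALDH2, the mitochondrial enzyme that oxidizes acetaldehyde, with 299 ± 34.2 FPKM in 3DF_50, 229 ± 43.2 in 3DF, 141 ± 38.7 in 2DF and 122 ± 0.979 in 2DC. ALDH2 rose in 3DF vs. 2DC by 0.89 (SE 0.16, edgeR adjusted p = 0.00668), beside the 0.29 of ALDH1A1. TKT had no expressed relative. TKTL1 and TKTL2, the transketolase-like genes, and another gene annotated as TKTL1-like had means of at most 0.167 FPKM in any condition.

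The other 2 retinaldehyde dehydrogenases were scarce. ALDH1A2 had 1.34 ± 0.233 FPKM in 3DF_50, 2.38 ± 0.372 in 3DF, 6.61 ± 3.58 in 2DF and 7.59 ± 1.12 in 2DC. Its difference in 3DF vs. 2DC was -1.68 on the log2 scale (SE 0.17, edgeR adjusted p = 0.000569). ALDH1A3 was lowest in 2DF, at 0.521 ± 0.248 FPKM, with 2.74 ± 1.38 in 3DF and 2.44 ± 0.0786 in 2DC. It fell by 2.21 in 2DF vs. 2DC (SE 0.35, edgeR adjusted p = 0.00421) and rose in 3DF vs. 2DF by 2.38 (SE 0.47, edgeR adjusted p = 0.0162).

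**Figure D4:**
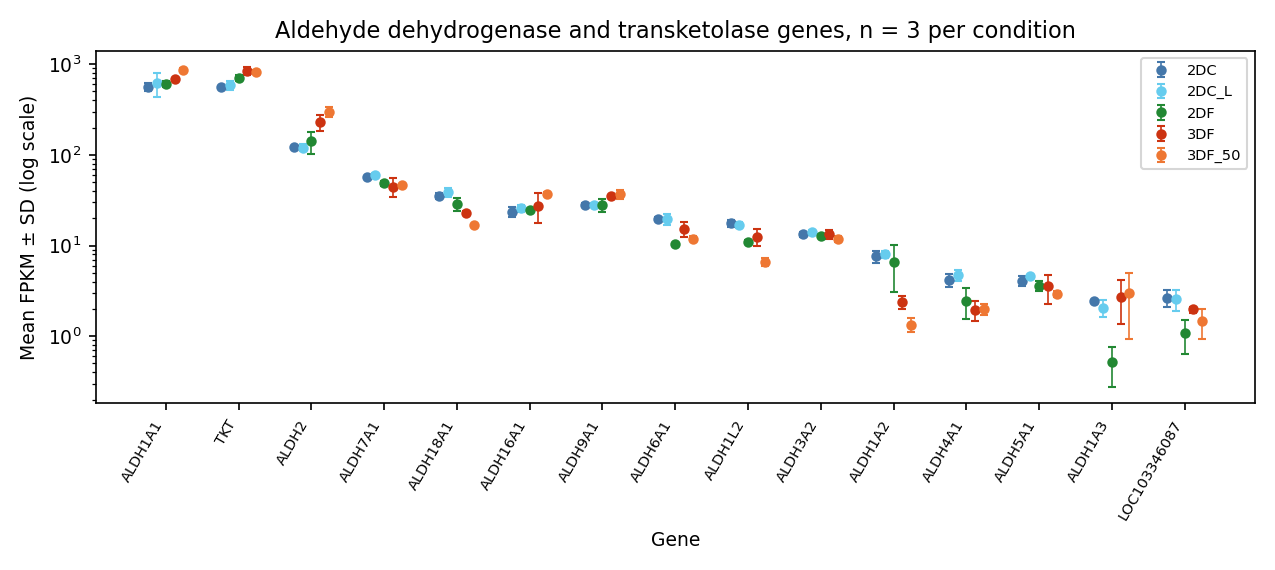
Mean FPKM (log axis) with SD, n = 3 libraries per condition, of TKT and of the 14 aldehyde dehydrogenase genes with a mean of at least 1 FPKM in some condition; LOC103346087 is annotated as similar to ALDH3B1. ALDH1A1 and TKT have means of 556 or more in every condition, ALDH2 between 119.8 and 299, and the others at 60.2 or less.

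Of the rest of the aldehyde dehydrogenase list, 13 genes were tested in 3DF vs. 2DC, where 1 was higher (ALDH2) and 3 were lower, with a median log2 fold change of -0.36. Over all genes tested 6.98% were higher and 8.38% lower, with a median of 0.01. Besides ALDH1A2, the lower genes were ALDH18A1, which starts proline synthesis (-0.62, SE 0.11), and ALDH4A1, which takes part in proline breakdown (-1.10, SE 0.23), with edgeR adjusted p of 0.00663 and 0.0134. In 2DF vs. 2DC none was higher and 3 were lower, against 6.73% and 7.63% of all genes. Those were ALDH1A3, the folate enzyme ALDH1L2 (-0.67) and ALDH6A1 of valine breakdown (-0.89). At an unadjusted p of at most 0.05 none was higher and 6 were lower, and DESeq2 called none higher and 4 lower. All genes gave 14.6% higher and 15.5% lower by the first rule and 7.18% and 8.93% by the second. In 3DF vs. 2DF, 1 was higher and 1 lower, against 3.40% and 2.65% of all genes. In 3DF_50 the family members below ALDH2 stood at 46.9 ± 1.37 FPKM for ALDH7A1, 36.9 ± 1.87 for ALDH16A1, 36.7 ± 4.19 for ALDH9A1 and 16.7 ± 0.153 for ALDH18A1. ALDH6A1, ALDH3A2 and ALDH1L2 had 11.9, 11.8 and 6.59 FPKM there, and ALDH5A1, ALDH4A1 and LOC103346087 had 2.91, 1.98 and 1.46.

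The genes of retinoid handling surround the reaction of ALDH1A1. Of 21 tested in 3DF vs. 2DC, 3 were higher and 3 lower, with a median of 0.25 on the log2 scale, beside 6.98% and 8.38% of all genes. Among the higher genes were RBP4, the carrier of retinol in blood (1.56, SE 0.44), and the receptor gene RXRG (0.78, SE 0.22), with edgeR adjusted p of 0.048 and 0.0493. The count of higher genes moved with each library left out, to 6 without 3DF replicate 1 and to 0 or 1 without any other. The lower genes were CRABP1, which binds retinoic acid in the cytosol (-1.44, SE 0.18), RDH11, a retinal reductase (-0.87, SE 0.18), and ADH5, an alcohol dehydrogenase that handles formaldehyde (-0.42, SE 0.11), with edgeR adjusted p of 0.00128, 0.0143 and 0.0413. CRABP1 had 7.87 ± 1.30 FPKM in 3DF_50, 15.6 ± 3.40 in 3DF, 17.6 ± 9.46 in 2DF, 48.3 ± 7.57 in 2DC_L and 42.0 ± 3.48 in 2DC. In 2DF vs. 2DC, 1 was higher and 4 lower (6.73% and 7.63% of all genes), and in 3DF vs. 2DF, 3 were higher and 1 lower (3.40% and 2.65% of all genes). Leaving out single libraries moved the 4 to between 1 and 4 and the 3 to between 0 and 4. Calls over all genes moved as well in the fits without single libraries, which serve all the lists. They ran from 1014 to 2982 in place of 2073 in 3DF vs. 2DC. In 2DF vs. 2DC they ran from 789 to 1854 in place of 1903, and in 3DF vs. 2DF from 417 to 960 in place of 798.

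Of the other pentose phosphate genes, 13 were tested in 3DF vs. 2DC. Beside 6.98% and 8.38% of all genes, none was higher and 1 was lower, PGM2, which interconverts pentose phosphates, at -0.69 (SE 0.17, edgeR adjusted p = 0.0258). At an unadjusted p of at most 0.05, 1 was higher and 1 lower (29.4% of all genes in either direction), and DESeq2 called none higher and 1 lower (7.89% and 9.25%). Scaled by library size alone, 1 was higher and none lower (14.6% and 5.85%). The call of PGM2 was the only one of the list, and it was lost without 2DC replicate 2 or 3 or 3DF replicate 2 or 3. The median of the list was 0.01, as for all genes. PGD, an enzyme of the oxidative branch that releases NADPH, had a difference of 0.02 (SE 0.17), beside the 0.60 of TKT, with an adjusted p in edgeR of 0.945. Its level was 78.0 ± 11.2 FPKM in 2DC and 79.6 ± 15.6 in 3DF, but 114 ± 5.34 in 3DF_50. In 3DF vs. 3DF_50 PGD differed by -0.54 (SE 0.15, edgeR adjusted p = 0.117) and was not called. In 2DF vs. 2DC, none of the list was higher and 1 was lower (6.73% and 7.63% of all genes). In 3DF vs. 2DF none was called in edgeR or DESeq2, where edgeR called 6.05% and DESeq2 9.29% of all genes, and none was higher and 1 lower at an unadjusted p of at most 0.05 (12.1% and 9.78%).

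NADPH feeds glutathione and thioredoxin. Of a list of NADPH, glutathione and peroxide defence genes, which also holds thioredoxin genes and superoxide dismutases, 29 were tested. In 3DF vs. 2DC, 6 were higher and 5 lower, with a median of 0.01, beside 6.98% and 8.38% of all genes. The counts ran from 5 to 9 and from 4 to 7 when single libraries were left out. Those that rose were CAT, which breaks down hydrogen peroxide (1.13, SE 0.11), the quinone reductase NQO1 (1.32, SE 0.16), the glutathione peroxidase GPX1 (1.02, SE 0.13), GCLC, the catalytic subunit for the first step of glutathione synthesis (1.08, SE 0.18), the thioredoxin reductase TXNRD1 (0.91, SE 0.17) and the glutathione reductase GSR (0.77, SE 0.19), with edgeR adjusted p from 0.000498 to 0.0297. NQO1 stood at 565 ± 63.8 FPKM in 3DF_50, 409 ± 35.0 in 3DF, 243 ± 50.5 in 2DF and 163 ± 31.1 in 2DC. Those that fell were GPX7 and GPX8, peroxidases of the endoplasmic reticulum (-0.97, SE 0.10, and -0.64, SE 0.11), PRDX4, a peroxiredoxin of the same compartment (-0.96, SE 0.14), the cytosolic isocitrate dehydrogenase IDH1 (-0.99, SE 0.17) and the secreted superoxide dismutase SOD3 (-1.07, SE 0.30), with edgeR adjusted p from 0.000649 to 0.0479. In 2DF vs. 2DC, 4 were higher and 4 lower (6.73% and 7.63% of all genes), and in 3DF vs. 2DF, 2 were higher and 1 lower (3.40% and 2.65%). The 4 higher fell to 0 without 2DC replicate 2, to 1 without 2DF replicate 1 and to 2 without 2DC replicate 1 or 2DF replicate 2, the 4 lower fell to 2 without 2DC replicate 2, and DESeq2 called 7 higher and 5 lower. The 2 higher in 3DF vs. 2DF ran from 0, without replicate 3 of either condition, to 4, without 3DF replicate 2, and DESeq2 called 6 (5.10% of all genes).

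Other proteins named crystallins in some eye tissue or species were read beside ALDH1A1 and TKT. Of 13 tested in 3DF vs. 2DC, 2 were higher and 5 lower, with a median of -0.42, beside 6.98% and 8.38% of all genes. The 5 lower became 1 without 2DC replicate 2 or 3 or 3DF replicate 3, and the 2 higher became 1 without any library other than 3DF replicate 1. The higher ones were CRYGS, a gamma crystallin of the lens (3.25, SE 0.47), and GSN, an actin-severing protein that is a corneal crystallin of fish (0.85, SE 0.22). CRYGS was scarce, at 0.784 ± 0.129 FPKM in 2DC and 7.58 ± 4.40 in 3DF, whereas GSN stood above ALDH1A1 in both, at 807 ± 51.7 and 1466 ± 413.5 FPKM. The lower ones were the membrane-binding ANXA2 (-0.91, SE 0.14), the prolyl isomerase PPIA (-0.74, SE 0.16), ASL, relative of the delta crystallin of birds (-0.72, SE 0.16), the small heat shock protein CRYAB (-0.79, SE 0.18) and LDHB, which serves as epsilon crystallin in some birds (-0.50, SE 0.12). The edgeR adjusted p of these 7 ran from 0.00283 to 0.032. Scaled by library size alone, 2 were higher and 2 lower (14.6% and 5.85% of all genes). ANXA2 and PPIA, at 1061 ± 98.4 and 1113 ± 103.4 FPKM in 2DC, were more abundant than ALDH1A1 and TKT there. Both stood below TKT in 3DF at 568 ± 58.3 and 668 ± 117.1. LDHA and ENO1 of the same list were not called and had mean levels above ALDH1A1 and TKT in both conditions. LDHA had 1273 ± 169 FPKM in 2DC and 1264 ± 125 in 3DF, and ENO1 had 912 ± 39.0 and 891 ± 71.9. In 2DF vs. 2DC, 1 was higher and 6 lower (6.73% and 7.63% of all genes), the 6 falling to between 2 and 3 without 2DC replicate 2 or 3 or 2DF replicate 1 or 2. In 3DF vs. 2DF, 1 was higher and 1 lower (3.40% and 2.65%). Without single libraries, the genes of the 5 lists called in 3DF vs. 2DC numbered 16 to 42 in place of 29, with 16 without 2DC replicate 2 and 17 without 3DF replicate 3. Calls over all genes fell in those 2 fits too, from 2073 to 1014 and 1319.

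In 3DF vs. 3DF_50 and in 2DC vs. 2DC_L no gene of the 5 lists was called by edgeR. At an unadjusted p of at most 0.05 the first pair had 4 aldehyde dehydrogenase genes higher and 1 lower in 3DF, and 4 NADPH and peroxide genes higher and 10 lower, beside 11.5% higher and 8.52% lower over all genes. DESeq2 called 15 list members in that pair and 5.52% of all genes, and 3 of the 15 were aldehyde dehydrogenase genes that were higher in 3DF (4.05% of all genes). In 2DC vs. 2DC_L, 1 retinoid and 1 NADPH gene were higher at an unadjusted p of at most 0.05 (3.75% of all genes), and DESeq2 called none (0.479%).

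The genes whose levels ran most like those of the crystallins were sought among 5373 genes with a symbol and a mean of at least 10 FPKM, by Pearson's r of log2(FPKM + 1) over the 15 libraries. These are descriptions over libraries that fall into 5 groups and share their scaling. For TKT the highest were CMKLR1, the chemerin receptor (r = 0.975), the ceramide synthase CERS4 (0.968), the lipid flippase ATP11A (0.951), BOK, a member of the BCL2 family (0.950), and CMTM3 (0.949). CMKLR1 had 58.8 ± 9.08 FPKM in 3DF, 56.5 ± 2.27 in 3DF_50 and 30.1 ± 5.66 in 2DF, and it was scarce on coated dishes, at 12.05 ± 1.16 in 2DC and 11.9 ± 4.03 in 2DC_L. The lowest were P4HA1, which hydroxylates prolines of collagen (-0.957), and ZNF106 (-0.954). P4HA1 had 37.8 ± 0.657 FPKM in 3DF_50, 43.5 ± 7.30 in 3DF, 63.2 ± 3.62 in 2DF and 99.4 ± 6.70 in 2DC.

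For ALDH1A1 the correlations were lower. The highest were the intermediate filament gene SYNM (r = 0.839), the lysosomal glycoprotein CREG1 (0.827), IMMT of the mitochondrial inner membrane (0.823), the fatty acid dehydrogenase ACADL (0.820) and the dynein adaptor BICD2 (0.819). CREG1 had 298 ± 35.6 FPKM in 3DF_50, 196 ± 21.9 in 3DF, 148 ± 37.2 in 2DF and 116 ± 9.76 in 2DC. The lowest were IL18R1, a subunit of the interleukin-18 receptor (-0.890), and LYPD1 (-0.871). IL18R1 had 18.8 ± 4.62 FPKM in 2DC and 1.59 ± 0.418 in 3DF_50. The correlation of ALDH1A1 with TKT was 0.564, which put TKT at rank 372 among these genes.

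The epithelial markers were read library by library, since both enzymes are also made by the corneal epithelium. In 3DF_50 replicates 1 and 2 the 12 markers summed to 0.480 and 0.482 FPKM, KRT12 had 0 counts, and ALDH1A1 stood at 874 and 843 FPKM and TKT at 876 and 811. In 3DF_50 replicate 3 the markers summed to 8.24 FPKM, with ALDH1A1 at 902 and TKT at 805. In 3DF the markers summed to 10.6 to 15.6 FPKM, with ALDH1A1 at 668 to 699 and TKT at 743 to 919. In 3DF both the marker sums and TKT lay above those of every 2DC library, and in 2DF the sums overlapped those of 2DC. The part of such cells in the level of either gene was not tested.

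**Figure D5:**
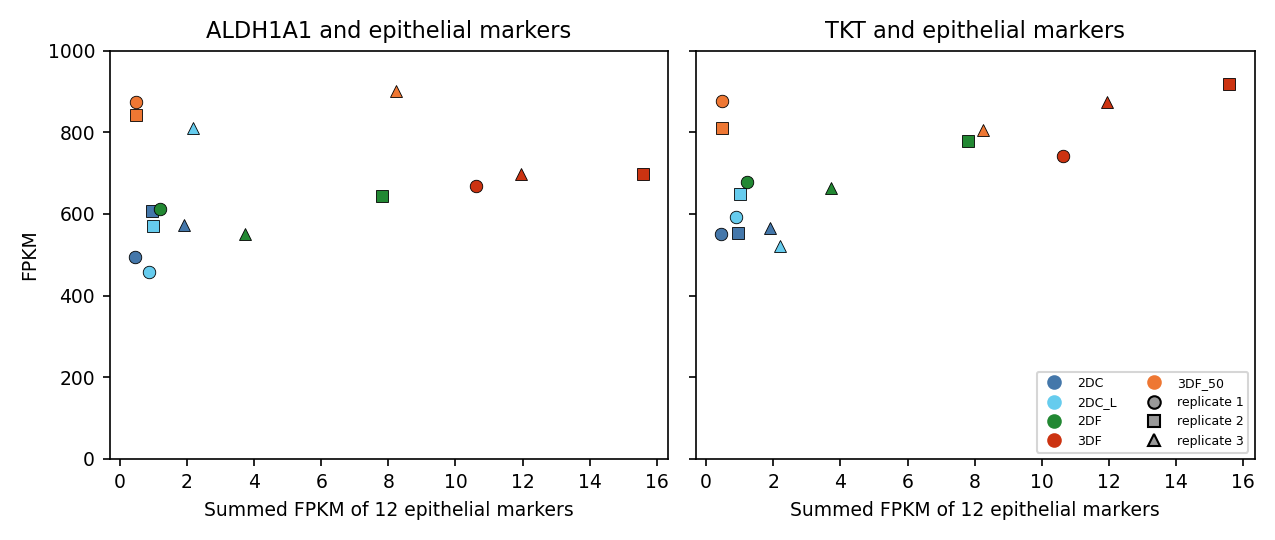
FPKM of ALDH1A1 (left) and TKT (right) against the summed FPKM of 12 corneal epithelium markers in each library, coloured by condition, with marker shapes for replicates 1 to 3. The 3DF_50 libraries 1 and 2 combine sums of 0.480 and 0.482 with crystallin levels of 811 to 876, and the 3DF libraries have the highest sums, 10.6 to 15.6.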

How the data were processed

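Bulk RNA-seq of rabbit keratocytes was analysed (5 conditions, 3 libraries each). The authors' deposited counts are whole reads per gene, aligned to oryCun2 with HISAT2 and counted with featureCounts; strand use is not given in the sources used here. The authors' deposited FPKM values follow from the counts, the gene length and a size per library that was 0.921 to 1.24 times its summed counts. Conditions came from the library labels.

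Pairs of conditions were tested by two-sided quasi-likelihood F tests (edgeR 4.0.16, R 4.3.3). Genes passed filterByExpr at its default minimum count of 10, TMM set the scale, and p-values were adjusted by Benjamini–Hochberg over all genes tested. The ratio was tested by exact permutation in Python 3.11.15. Fits were first tested on simulated data.

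The genes and lists were chosen with earlier results of these data known. Named are ALDH1A1 and TKT, their relatives with a mean of at least 1 FPKM in some condition, list members called in 3DF vs. 2DC (at most 6 per direction and list), the 5 genes most and 2 least correlated with each, and marker genes; others named were chosen after their values were seen. AASDHPPT, a transferase whose name includes a dehydrogenase, was left out of the family. Listed symbols absent from the tables are not analysed here.

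Alternatives were DESeq2 1.42.0, its size factors in edgeR, library size alone, no filter, a mean of at least 1 CPM, all 15 libraries in the fit, a block for the replicate number or for the library prefix, limma 3.58.1 with pseudocounts of 1 and 0.1 on log2 FPKM, and leaving out each library. Library size without the 10 largest genes, and leaving out libraries for the ratio, were added after the data were seen. Values of some single genes of the lists are not reported here.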

Additional observations from a re-analysis of the deposited data

How the results depend on the processing

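Of 340 alternative values for the 20 log2 fold changes, 293 kept their direction and side of the threshold, 25 lost and 6 gained a call, and 16 changed sign, none of these past the threshold. The cause of these changes was not tested. With DESeq2, TKT was 0.35 in 2DF vs. 2DC and ALDH1A1 -0.37 in 3DF vs. 3DF_50, both now called. Library size alone gained calls for ALDH1A1 in 3DF vs. 2DC (0.47) and for TKT in 2DF vs. 2DC (0.46) and 3DF_50 vs. 2DF (0.48), while the median of all genes stood as high as 0.37 in a pair, and leaving the 10 largest genes out of the library size gained TKT in 2DF vs. 2DC (0.34). ALDH1A1 lost its calls under the library-prefix block in 3DF_50 vs. 2DC (0.45), vs. 2DC_L (0.43) and vs. 2DF (0.44), and under limma with pseudocounts 1 and 0.1 in 3DF_50 vs. 2DC_L (0.55 and 0.55) and vs. 2DF (0.54 and 0.54). Of the 2DF libraries only replicate 1 shares a prefix with another library, so the block cannot judge the call against 2DF. TKT lost its call under limma in 3DF vs. 2DC_L (0.52 and 0.52).

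Signs changed only in differences that were not called. TKT in 3DF vs. 3DF_50 was 0.0029 with DESeq2, 0.0112 with no filter, 0.0224 with all libraries, 0.0692 with the prefix block and 0.0206 with limma at either pseudocount. ALDH1A1 in 2DF vs. 2DC_L was 0.10 by library size alone and 0.0127 and 0.0128 with limma. Samples with the same replicate number did not deviate together in every pair of any comparison, so the numbers were not taken to pair samples. The replicate block lost the TKT call in 3DF vs. 2DC_L (0.53), turned ALDH1A1 in 2DF vs. 2DC_L to 0.0230 and changed no other call of the 2 genes.

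Leaving out 1 library gave TKT 0.53 to 0.69 in 3DF vs. 2DC, 0.44 to 0.61 in 3DF vs. 2DC_L and -0.0626 to 0.0870 in 3DF vs. 3DF_50. It gave ALDH1A1 0.34 to 0.76 in 3DF_50 vs. 2DC_L, 0.49 to 0.59 in 3DF_50 vs. 2DF, -0.30 to 0.12 in 2DC vs. 2DC_L, -0.0055 to 0.42 in 3DF vs. 2DC_L and -0.19 to 0.24 in 2DF vs. 2DC_L. The adjusted p of ALDH1A1 over all conditions ran from 0.000861 to 0.0738, and with 2DC, 2DF and 3DF alone it was 0.197. The share of the ratio's sum of squares held by conditions ran from 26.5% to 73.8% and was 63.1% in those 3 conditions. List members called numbered 16 to 42 in 3DF vs. 2DC, 9 to 23 in 2DF vs. 2DC, 3 to 16 in 3DF vs. 2DF and 0 to 3 in 3DF vs. 3DF_50, where DESeq2 called 15 and library size alone 1; DESeq2 called 20 in 3DF vs. 2DF. The counts moved by over 1.5 times without 2DC replicate 2 (16) or 3DF replicate 3 (17) in the first pair, 2DC replicate 2 (9) or 2DF replicate 1 (13) in the second, 2DF replicates 1, 2 or 3 (4, 5 and 3) or 3DF replicate 3 (3) in the third, and 3DF replicates 1 or 2 (3 and 1) in the last. Calls over all genes also moved without single libraries, to 1014 to 2982 from 2073 in 3DF vs. 2DC and to 789 to 1854 from 1903 in 2DF vs. 2DC. They moved to 417 to 960 from 798 in 3DF vs. 2DF and to 0 to 340 from 82 in 3DF vs. 3DF_50. The genes most correlated with each crystallin were the same 5 on log2 TMM CPM, and over 5 condition means none of the 5 stayed among the top 5.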
